A study of Mus musculus with 62 samples.

Results

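Six6, Six3, Lhx1 and Zfhx3 are 4 transcription factor genes that mark the developing and adult suprachiasmatic nucleus (SCN), the hypothalamic pacemaker. They were taken by gene symbol from the deposited gene counts. All 4 had a row among the 12047 genes of the SCN table, and Six3 and Zfhx3 also had one among the 11569 genes of the table for the nucleus accumbens (NAc) and prefrontal cortex (PFC). Levels of Six6 and Lhx1 in the NAc and PFC are not analysed here. Both tables hold the genes that passed a filter on low counts set by the authors, so members are in a table only where they passed it.

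RNA sequencing was done on 62 libraries from frozen tissue punches of 26 C57BL/6J mice, with 19 libraries of the SCN, 26 of the NAc and 17 of the PFC. Each library came from 1 region of 1 animal, and tissue was collected at ZT6, in the light phase. The study exposed mice to circadian rhythm disruption (CRD), a series of reversals of the light/dark cycle, or to matching control conditions, and collected brains approximately 4 weeks later. The labels give region and mouse number only, so mice of both conditions and sexes are pooled within each region, and libraries were not compared by exposure or sex. The study's methods name mice exposed in adolescence and their controls, whereas the protocol in the labels also names mice exposed as adults, and neither ties an age to a library.

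Six6 and Six3 are homeodomain proteins of 1 family, and mice need both for the eye and ventral forebrain, including the SCN. Lhx1 is a LIM-homeodomain protein that SCN neurons keep into adulthood, where it is needed for normal levels of peptides such as Vip that keep the neurons synchronous. Zfhx3 is a very large protein with many zinc fingers and several homeodomains, expressed in adult SCN neurons and needed for normal daily rhythms. Six3 is also known outside the hypothalamus, in striatal projection neurons that express the dopamine receptor Drd2.

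Positions were taken from GENCODE M21 on GRCm38, the build of the counts. Six6 (ENSMUSG00000021099) lies at chr12:72939892-72944899 on the plus strand, and Six3 (ENSMUSG00000038805) at chr17:85613608-85629302 on the plus strand. Lhx1 (ENSMUSG00000018698) lies at chr11:84518284-84525535 on the minus strand. Zfhx3 (ENSMUSG00000038872) lies at chr8:107942644-108961630 on the plus strand. All are annotated as protein-coding. Their merged exons measured 4.01 kb for Six6, 5.45 kb for Six3, 4.07 kb for Lhx1 and 21.0 kb for Zfhx3, so levels of different genes are ranked per kilobase of exon.

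The promoters of Six6, Six3 and Lhx1 are shown because these 3 genes varied together across SCN libraries. Shared control of the genes and the share of SCN neurons in a punch cannot be told apart from this, and neither was tested. The windows run from 250 bases before to 50 bases after the RefSeq start on GRCm38.p6, 5′ to 3′ on the strand of the gene, at chr12:72939632-72939931 (plus), chr17:85620584-85620883 (plus) and chr11:84525485-84525784 (minus). Capitals mark the CCAAT box (CCAAT or its reverse ATTGG), the half-site TGACG of the cAMP response element, and the stretch GATTGGCAG, which holds a reverse CCAAT box.
Six6: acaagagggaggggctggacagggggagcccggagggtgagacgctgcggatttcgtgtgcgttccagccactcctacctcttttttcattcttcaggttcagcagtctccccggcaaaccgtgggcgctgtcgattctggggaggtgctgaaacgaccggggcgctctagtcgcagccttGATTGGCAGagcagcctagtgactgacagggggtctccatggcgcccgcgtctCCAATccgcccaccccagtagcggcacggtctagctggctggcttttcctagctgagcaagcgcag
Six3: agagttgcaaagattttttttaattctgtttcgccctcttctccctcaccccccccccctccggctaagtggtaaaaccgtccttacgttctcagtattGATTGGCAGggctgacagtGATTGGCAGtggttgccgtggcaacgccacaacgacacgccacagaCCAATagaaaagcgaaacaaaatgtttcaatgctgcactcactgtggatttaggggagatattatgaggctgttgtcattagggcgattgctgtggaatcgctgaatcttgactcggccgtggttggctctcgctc
Lhx1: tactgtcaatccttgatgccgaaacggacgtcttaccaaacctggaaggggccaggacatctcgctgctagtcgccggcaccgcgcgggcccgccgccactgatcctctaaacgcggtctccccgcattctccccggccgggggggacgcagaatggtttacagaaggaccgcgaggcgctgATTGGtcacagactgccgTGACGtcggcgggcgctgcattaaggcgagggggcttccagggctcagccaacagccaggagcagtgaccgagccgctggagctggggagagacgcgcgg
The CCAAT box was found 2 times in Six6, 3 times in Six3 and 1 time in Lhx1, on either strand, and in 37.4% of 32817 promoter windows of the same length. The stretch GATTGGCAG stood 1 time in Six6, 69 bases before the start, and 2 times in Six3, 151 and 132 bases before it. It was noticed in these sequences and then counted, and 153 windows (0.466%) held it. TGACG was found in Lhx1 and in 20.8% of all windows. The E-box CACGTG, the full element TGACGTCA and the homeodomain core TAATTA were found in none of the 4 windows and in 7.15%, 1.79% and 5.3% of all windows. The Zfhx3 window, at chr8:108714394-108714693, held none of the motifs searched. The RefSeq starts used for Six3 and Zfhx3 lie inside the GENCODE spans given above, and the starts of those spans were not searched. A match of letters is a description of the window and not a bound site.

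The regions were checked by their markers before the members were compared. Ppp1r1b, the striatal phosphoprotein DARPP-32, had medians of 319 (NAc) and 13.7 (PFC) CPM, the count of a gene scaled to library size. Slc17a7, the vesicular glutamate transporter of cortical neurons, ranged from 543 to 647 CPM in the PFC. Its median among NAc libraries was 64.6 CPM, but it varied widely there, between 4.6 and 340 CPM. Summed over 8 cortical markers, the NAc median was 104 CPM and the highest NAc library held 500 CPM. PFC libraries held 961 to 1070 CPM of this sum. The part of cortical tissue in NAc levels was not tested. Avp ranged from 22.6 to 187 CPM in the SCN and Prok2 from 1.06 to 24.5 CPM. Total counts ranged from 16496666 to 35389742 in SCN libraries, from 28879724 to 60009482 in NAc libraries and from 31216225 to 50333579 in PFC libraries.

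Several SCN libraries stood apart. In J1199 and J1140 the summed level of 8 detected striatal markers, of 10 listed, was 899 and 415 CPM, against 122 to 195 CPM in the 17 other libraries. J1157 and J1159 were the deepest SCN libraries and had the lowest share of counts on the mitochondrial ribosomal RNAs mt-Rnr1 and mt-Rnr2, 20.5% and 24.8%, against 33.5% to 51.6% in the 17 others. Their summed level of Gad1, Gad2 and Slc32a1, the markers of GABA neurons, was 748 and 928 CPM, against 247 to 633 CPM in libraries other than these 4. J1165 had 1403 Xist counts in the SCN but 23 in the NAc and 18 in the PFC of the mouse with that number. Calls that rest on J1157 and J1159, or on J1199 and J1140, are given below without them.

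Six3 was highest in the SCN, lower in the NAc and near 0 in the PFC. On a scale set over both tables, Six3 ranged from 14.6 to 75.5 CPM in the SCN with a median of 30.4 CPM (n = 19). It ranged from 6.67 to 18.9 CPM in the NAc with a median of 14.3 CPM (n = 26), and the 4 lowest SCN libraries lay within that range. In the PFC it was at 0 counts in 6 of 17 libraries and reached 18 counts, or 0.419 CPM, in the highest, with 77 counts in all 17 libraries together. In bulk tissue, fewer cells of a type and less RNA per cell cannot be told apart.

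**Figure D1:**
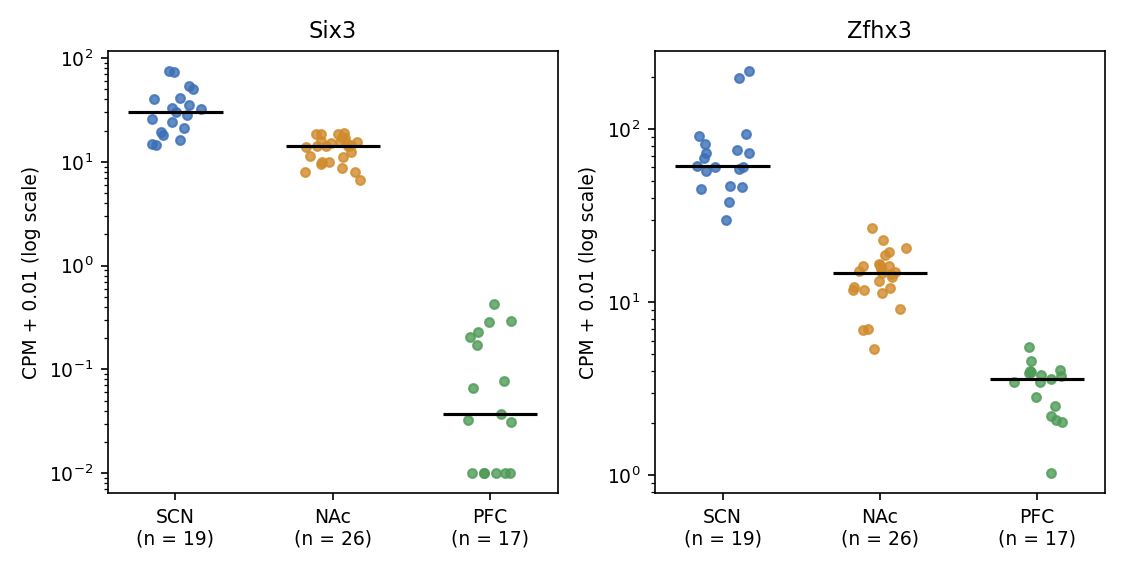
CPM of Six3 and Zfhx3 in every library of the SCN, NAc and PFC, scaled over both tables, with 0.01 CPM added and a logarithmic y axis. Points are libraries and bars are medians; the medians of Six3 are 30.4, 14.3 and 0.0268 CPM before the addition, and those of Zfhx3 are 61.5, 14.8 and 3.6 CPM.

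Six3 was higher in the SCN than in the NAc by 1.36 on the log2 scale (SE 0.16, adjusted p = 3.27e-10, edgeR's quasi-likelihood test). In the same mouse it was higher in the SCN in 18 of 19 animals. Its log2 difference was 8.26 (SE 0.36, adjusted p = 2.44e-22) between the SCN and PFC, and 6.94 (SE 0.28, adjusted p = 4.52e-26) between the NAc and PFC, each in the same direction in every mouse with both regions, 12 of 12 and 17 of 17. Six3 was kept in the NAc and PFC table through its NAc level, so it had to differ between these regions, and both contrasts with the PFC rest on few counts.

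Zfhx3 followed the same order. It ranged from 30.0 to 217 CPM in the SCN with a median of 61.5 CPM, from 5.35 to 26.8 CPM in the NAc with a median of 14.8 CPM, and from 1.02 to 5.49 CPM in the PFC with a median of 3.6 CPM. Every SCN library lay above every NAc library, whereas the lowest NAc library, 5.35 CPM in J1160, lay just under the highest PFC library. Zfhx3 was higher by 2.44 on the log2 scale in the SCN than in the NAc (SE 0.18, adjusted p = 1.2e-16), by 4.53 in the SCN than in the PFC (SE 0.24, adjusted p = 1.24e-19) and by 2.12 in the NAc than in the PFC (SE 0.16, adjusted p = 1.27e-15). These were the directions in 19 of 19, 12 of 12 and 17 of 17 mice.

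The regions differed in a large share of all genes, and the calls of the 2 members were read against it. A gene was called at an adjusted p under 0.05 and a fold of at least 1.2. Both members were called higher in the first region of each comparison, as were 34.2% of genes for the SCN against the NAc (29.8% were called lower), 33.5% for the SCN against the PFC (31.3% lower) and 23.7% for the NAc against the PFC (21.7% lower). Separation of every library was less common. Every SCN library lay above every NAc library in 5.63% of genes, Zfhx3 included. Every SCN library lay above every PFC library in 8.96%, both members included, and every NAc library above every PFC library in 4.83%, Six3 included. SCN libraries were deposited in another table than the other regions, so region and any difference in handling between the tables cannot be told apart. No difference in these contrasts was detected between mice numbered up to J1021 and those from J1140, with adjusted p of the interaction from 0.327 to 0.99 over both members and the 3 comparisons.

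The relatives of these genes were not uniformly higher in the SCN. Of 7 measured genes that can work with Six3 and Six6, namely EYA and DACH cofactors and TLE corepressors, 1 was called higher than in the NAc and 5 lower, with a median of -0.55 on the log2 scale against 0.04 over all genes. Tle3, a Groucho-type corepressor, was higher by 0.75 (SE 0.13, adjusted p = 1.1e-06), and Dach1, a partner of the EYA proteins, was at -3.23 (SE 0.24, adjusted p = 5.96e-17). Of 11 LIM-homeodomain factors and cofactors, 1 was called higher and 7 lower, with a median of -0.78. The one that was higher was Ssbp3, a partner of the LIM-domain binding proteins, by 0.60 (SE 0.06, adjusted p = 1.05e-11), and Lmo4, a LIM-only protein, was at -1.98 (SE 0.09, adjusted p = 6.98e-24). Of 8 zinc-finger homeobox genes other than Zfhx3, 2 were called higher and 3 lower. Zfhx4, the closest in build to Zfhx3, had medians of 43.6 (SCN), 16.3 (NAc) and 8.91 CPM (PFC), each scaled within its table. It was higher in the SCN than in the NAc by 1.27 (SE 0.10, adjusted p = 3.36e-16). Zfhx2 did not pass the test between these regions, at -0.38 (SE 0.20, adjusted p = 0.0802).

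Within the SCN, levels below are CPM scaled over SCN libraries only. Six6 ranged from 3.44 CPM in J1199 to 41.2 CPM in J1157, with a median of 22.8 CPM, from 76 to 2235 counts. Six3 ranged from 16.2 CPM in J1017 to 84.8 CPM in J1159, with a median of 33.8 CPM. The libraries with the most Six3, J1159 and J1157, were also among the 4 with the most Six6. Lhx1 ranged from 1.63 CPM in J1199 to 24.1 CPM in J1157, with a median of 8.32 CPM, from 34 to 1305 counts. Zfhx3 ranged from 32.9 CPM in J1018 to 244 CPM in J1157, with a median of 67.8 CPM. Six6 and Lhx1 were thus lowest in the same library, which was also the one richest in striatal genes, and J1157 and J1159 were among the 4 highest for every member.

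Zfhx3 set J1157 and J1159 apart from the rest more than any other member did. It was at 244 and 223 CPM there, and the next libraries were J965 with 105 CPM and J1160 with 102 CPM. Six6 and Lhx1 had no such gap. Six6 was at 41.2 and 34.8 CPM in these libraries against up to 37.8 CPM elsewhere, and Lhx1 was at 24.1 and 18.6 CPM with J1021 between them. Six3 lay above the rest by less than Zfhx3, at 82.7 and 84.8 CPM against up to 60.4 CPM. The part of depth, mitochondrial ribosomal RNA share and GABA neuron markers, which were also at an extreme in these libraries, was not tested.

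Per kilobase of exon, the order of the medians was Six3 with 6.21, Six6 with 5.7, Zfhx3 with 3.23 and Lhx1 with 2.04 CPM per kb. The ranges of all 4 overlapped, from 2.98 to 15.6 for Six3, 0.859 to 10.3 for Six6, 1.57 to 11.6 for Zfhx3 and 0.401 to 5.91 for Lhx1. The medians lay at the percentiles 69.1, 66.6, 48.8 and 33.9 of 12020 annotated genes of the SCN table. All 4 were among the more variable genes. The SD of log2 CPM over the 19 libraries was 1.12 for Lhx1, 0.92 for Six6, 0.73 for Six3 and 0.71 for Zfhx3, against a median of 0.29 over all genes. With J1157 and J1159 left out, Zfhx3 had an SD of 0.45, at the percentile 86.5, while Lhx1 stayed at 1.07, Six6 at 0.92 and Six3 at 0.59, at percentiles from 94.0 to 99.2.

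**Figure D2:**
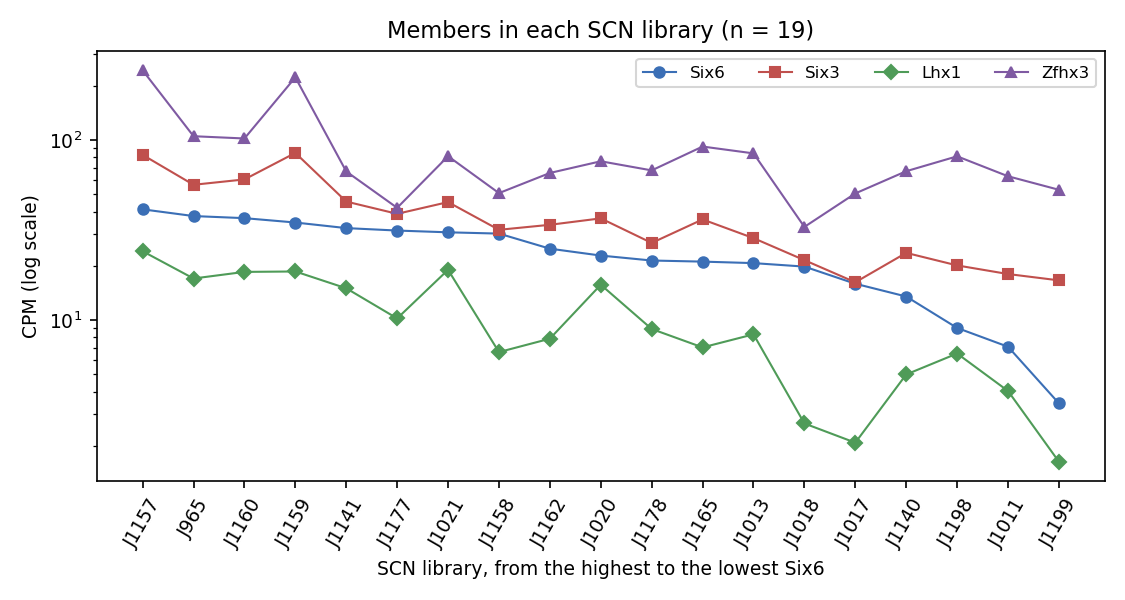
CPM of the 4 members in each of the 19 SCN libraries on a logarithmic axis, with libraries ordered from the highest to the lowest Six6. Six3 and Lhx1 mostly fall with Six6 from left to right, from 82.7 to 16.6 CPM and from 24.1 to 1.63 CPM between the end libraries, while Zfhx3 peaks in J1157 and J1159 at 244 and 223 CPM.

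Proportions between members, given as ratios of CPM without regard to exon length, were not fixed across libraries. The ratio of Six3 to Six6 ranged from 1.02 in J1017 to 4.82 in J1199, with a median of 1.49, and the ratio of Lhx1 to Six6 from 0.131 in J1017 to 0.721 in J1198, with a median of 0.448. J1199 held 16.6 CPM of Six3 beside 3.44 CPM of Six6 and 134 CPM of Ppp1r1b, the highest Ppp1r1b of any SCN library. Six3 is expressed in the NAc, as given above, and the part of striatal tissue in this ratio was not tested. The ratio of Zfhx3 to Six6 ranged from 1.34 in J1177 to 15.4 in J1199, with a median of 3.18.

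Six6, Six3 and Lhx1 varied together across the 19 SCN libraries. Pearson's r of log2 CPM was 0.90 for Six3 and Lhx1 (Spearman's rho 0.93), 0.82 for Six6 and Six3 (rho 0.94) and 0.79 for Six6 and Lhx1 (rho 0.88). The 6 pairs of members were tested with 100000 permutations, two-sided, and the adjusted p of r was 3e-05, 3e-05 and 0.00015 for these pairs, where 1e-05 is the smallest unadjusted p that the permutations can give. The adjusted p of rho was 2e-05 for each. Without the 2 libraries farthest from the median of the first gene of the pair, r was 0.91, 0.85 and 0.70. Peptides of SCN neurons also varied over these libraries, Vip from 5.07 to 134 CPM. The part of the share of SCN neurons in these r was not tested.

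Zfhx3 was compared with the others in the same way. Its r was 0.76 with Six3 (rho 0.66, adjusted permutation p of r 0.00015), 0.69 with Lhx1 (rho 0.72, adjusted permutation p 0.0016) and 0.40 with Six6 (rho 0.52, adjusted permutation p 0.091). Without J1157 and J1159, a choice made after their Zfhx3 level was seen, r was 0.53 with Six3 (permutation p = 0.028), 0.63 with Lhx1 (permutation p = 0.0065) and 0.23 with Six6 (permutation p = 0.38). The same 17 libraries gave r of 0.91 for Six3 and Lhx1, 0.83 for Six6 and Six3 and 0.76 for Six6 and Lhx1. Whether the r of Zfhx3 differs from those of the other pairs was not tested.

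**Figure D3:**
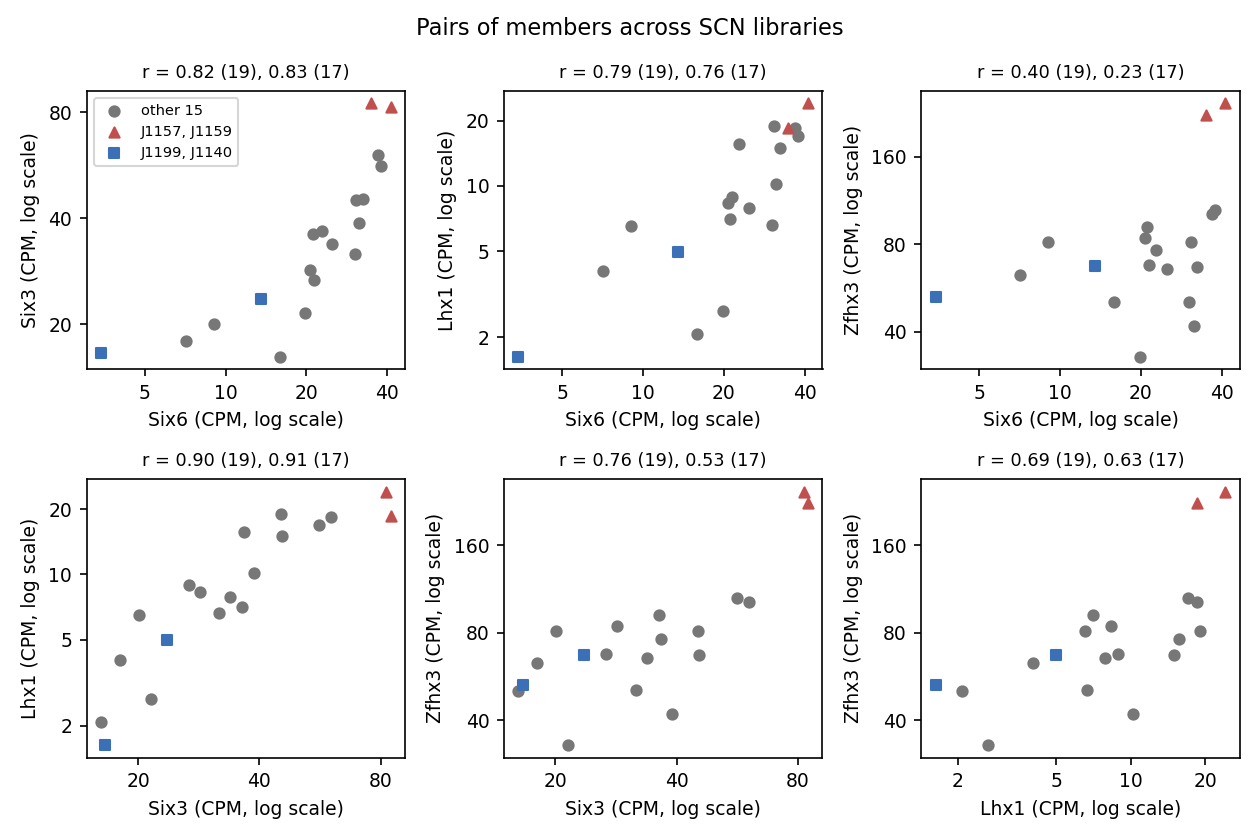
Each panel plots 1 pair of members in CPM, both axes logarithmic, with a point for each of the 19 SCN libraries and Pearson's r of log2 CPM over 19 libraries and over 17 without J1157 and J1159. Six3 and Lhx1 are tightest (0.90 and 0.91), and J1157 and J1159 stand above the others in every panel with Zfhx3.

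The pairs were also examined within the ranges of mouse numbers, which may mark batches. Among the 12 libraries of the upper range, r was 0.83 for Six6 and Six3, 0.90 for Six6 and Lhx1 and 0.90 for Six3 and Lhx1 (permutation p = 0.00031, 7e-05 and 3e-05). Among the 7 of the lower range, r was 0.83 for Six6 and Six3 and 0.94 for Six3 and Lhx1 (exact permutation p = 0.0093 and 0.0062), and 0.66 for Six6 and Lhx1 (exact permutation p = 0.094, rho 0.86). For Six3 and Zfhx3, r was 0.74 in the lower range (exact permutation p = 0.051) and 0.75 in the upper (permutation p = 0.0051). For Lhx1 and Zfhx3 it was 0.83 in the lower range (exact permutation p = 0.012) and 0.64 in the upper (permutation p = 0.029), and for Six6 and Zfhx3 it was 0.42 and 0.39 (exact permutation p = 0.34 and permutation p = 0.21). Median levels in the lower and upper range were 20.7 and 27.5 CPM for Six6, 28.5 and 35.0 CPM for Six3, 8.32 and 8.39 CPM for Lhx1, and 76.2 and 67.4 CPM for Zfhx3, with overlapping ranges.

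Without J1199 and J1140, the libraries with striatal genes, r was 0.84 for Six6 and Six3, 0.70 for Six6 and Lhx1 and 0.89 for Six3 and Lhx1.

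No relation was detected between the level of a member in one region and its level in another region of the same mouse. For Six3, r between regions of a mouse was 0.07 for the SCN and NAc (n = 19, rho 0.08), 0.18 for the SCN and PFC (n = 12, rho 0.13) and 0.07 for the NAc and PFC (n = 17, rho 0.13). For Zfhx3 it was 0.10 (rho -0.15), 0.13 (rho 0.29) and 0.44 (rho 0.10). Of these 6 relations none passed, with adjusted permutation p from 0.49 to 0.77 for r and 0.76 for rho. For Zfhx3 in the NAc and PFC, r was -0.13 without the 2 mice farthest from the median. In the same way r was -0.20 for Six3 and -0.36 for Zfhx3 in the SCN and NAc, and 0.09 and -0.27 in the SCN and PFC. Without the SCN library of J1165, r was 0.075 for Six3 and 0.105 for Zfhx3 in the SCN and NAc. It was 0.163 and 0.125 in the SCN and PFC.

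Reads on the opposite strand bear on Six6 and Six3. The strand used in counting was not given in the sources used here, so reads of a gene and of an overlapping antisense partner cannot be told apart. Six3os1 overlaps Six3 by 4791 bases, of which 106 lie in exons of both, and ranged from 5.3 to 22.2 CPM in the SCN. It followed Six3 with an r of 0.92, and 0.90 without J1157 and J1159, and its slope on Six3 passed with an adjusted p of 3.32e-06. Its median was 5.52 CPM among NAc libraries and 0.0262 CPM among PFC libraries. A further antisense gene, Gm28528, overlaps Six3 by 1676 bases, with 168 in exons of both, and was not among the genes with counts here. 4930447C04Rik, also known as Six6os1, overlaps Six6 by 883 bases, with 192 in exons of both, and ranged from 2.07 to 7.59 CPM in the SCN. Its slope on Six6 did not pass (r 0.49, adjusted p = 0.219), and without J1157 and J1159 r was 0.74. Lhx1os starts 125 bases from Lhx1 and runs the other way without overlap. It ranged from 0.544 to 4.64 CPM and followed Lhx1 with an r of 0.69 (adjusted p = 0.0366). Aatf, the next coding gene beside Lhx1, did not pass (r 0.35, adjusted p = 0.377).

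The rest of the SCN table was then set against each member. For each of the 12046 other genes, edgeR's quasi-likelihood test gave a slope, the log2 change of the gene for a change of 1 in log2 CPM of the member, and a slope passed at an adjusted p under 0.05. Six3 and Lhx1 had positive slopes on Six6, of 0.65 (SE 0.10, adjusted p = 0.001) and 0.98 (SE 0.16, adjusted p = 0.00159), as had 1.26% of all genes (1.95% had negative slopes that passed). On Six3, the slopes of Lhx1, Six6 and Zfhx3 were 1.34, 0.93 and 0.76 (adjusted p 1.1e-05, 0.000458 and 0.000346), among 15.8% of genes (12.6% negative). On Lhx1, those of Six3, Six6 and Zfhx3 were 0.60, 0.56 and 0.48 (adjusted p 9.93e-06, 0.00509 and 0.00748), among 4.10% (3.20% negative). On Zfhx3, those of Six3 and Lhx1 were 0.73 and 0.94 (adjusted p 0.000157 and 0.00303), among 21.2% (17.8% negative). Zfhx3 and Six6 did not pass against each other, with adjusted p of 0.207 and 0.129.

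Without J1157 and J1159 the shares of genes with a positive slope were 1.25% for Six6, 1.43% for Six3, 1.06% for Lhx1 and 2.26% for Zfhx3. Those with a negative slope were 2.83%, 1.33%, 1.19% and 1.11%. The number of genes that passed in either direction was 4699 for Zfhx3 with all libraries and 406 without these 2, and 3423 and 332 for Six3. For Lhx1 it was 879 and 271, and for Six6 387 and 492. When J1199 and J1140 were left out instead, 2696 genes passed for Lhx1 and 192 for Six6. The shares were then 1.01% positive and 0.581% negative for Six6, 20.3% and 15.8% for Six3, 12.8% and 9.56% for Lhx1, and 23.3% and 19.3% for Zfhx3, and each slope between members that passed with all libraries passed there as well. In the lower range of mouse numbers, the slopes of Lhx1 and Six3 on Six6 were 1.11 and 0.73, no smaller than with all libraries, and did not pass in the edgeR fit (adjusted p = 0.411 and 0.236, 7 libraries). The slopes among Six6, Six3 and Lhx1 all passed in the 17 libraries, with adjusted p from 6.23e-05 to 0.0216. Those between Zfhx3 and the others did not, with adjusted p from 0.0697 to 0.678, and that of Lhx1 on Zfhx3 was 1.30 there, although the permutation tests of r with Six3 and Lhx1 gave the values above.

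The genes most like each member were named by a fixed rule, the 5 highest and 3 lowest r over the 19 SCN libraries, and these r are descriptions. For Six6 the highest were Six3os1 (0.88), B630019K06Rik (0.88), the kinase Pim2 (0.88), the peptide Avp (0.86) and the receptor Grpr (0.85). Dgkb, a diacylglycerol kinase, Gria2, an AMPA receptor subunit, and Syndig1 were lowest, from -0.88 to -0.87. For Six3 they were Spon1 (0.94), Dlk1 (0.93), the clock gene Per2 (0.93), Trp53i11 (0.93) and Six3os1 (0.92), with Actr3b, Calm2 and Rgs4 lowest, from -0.92 to -0.91. For Lhx1 they were Cadps2, a regulator of dense-core vesicle release (0.93), Grpr (0.91), St8sia6 (0.90), Six3 itself (0.90) and Nr4a3 (0.90), with Tmem158, Dgkb and Rgs4 lowest, from -0.93 to -0.90.

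Zfhx3 had other neighbours. Pnmal2 (0.95), the neuronal splicing factor Srrm4 (0.95), Armcx4 (0.94), Ptprn2 (0.94) and Ntm (0.94) were highest, and Gmfb, Zfp706 and Ptgr2 lowest, from -0.96 to -0.93. In the 17 libraries other than J1157 and J1159, the 5 highest were Cacna1g, a calcium channel of the T type (0.90), Pnmal2 (0.88), Ntm (0.88), Rph3a (0.87) and Ephb1 (0.87). Among all other genes, Lhx1 ranked 9 for Six3 and Six3 ranked 4 for Lhx1, while Six3 ranked 17 and Lhx1 30 for Six6. For Zfhx3, Six3 ranked 890 and Lhx1 1392 over the 19 libraries, and in the 17 libraries Lhx1 ranked 502 and Six3 1077.

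Most measured receptors and signalling genes of the SCN had a positive slope on each member with all libraries. Of 12 measured genes of this list, 9 had a positive slope on Six6 that passed, 11 on Six3, 10 on Lhx1 and 8 on Zfhx3, and none had a negative one, where 1.26%, 15.8%, 4.10% and 21.2% of all genes had a positive one. The median r of the list was 0.68, 0.698, 0.744 and 0.545, against 0.00237 to 0.0233 over all genes. Grpr, the receptor of gastrin-releasing peptide, had the lowest adjusted p of the list with Six6 (slope 0.75, adjusted p = 0.00104), Six3 (0.88, adjusted p = 0.00042) and Lhx1 (0.65, adjusted p = 4.22e-05). Vipr2, the receptor through which VIP synchronises SCN neurons, had slopes of 1.01 on Six6 and 0.62 on Lhx1. Prokr2, the receptor of prokineticin 2, had slopes of 0.95 on Six6, 1.01 on Six3 and 0.68 on Lhx1. The counts were 9, 6, 8 and 1 of 12 without J1157 and J1159, and Prokr2 was the gene that passed with Zfhx3. They were 5, 9, 10 and 5 without J1199 and J1140.

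**Figure D4:**
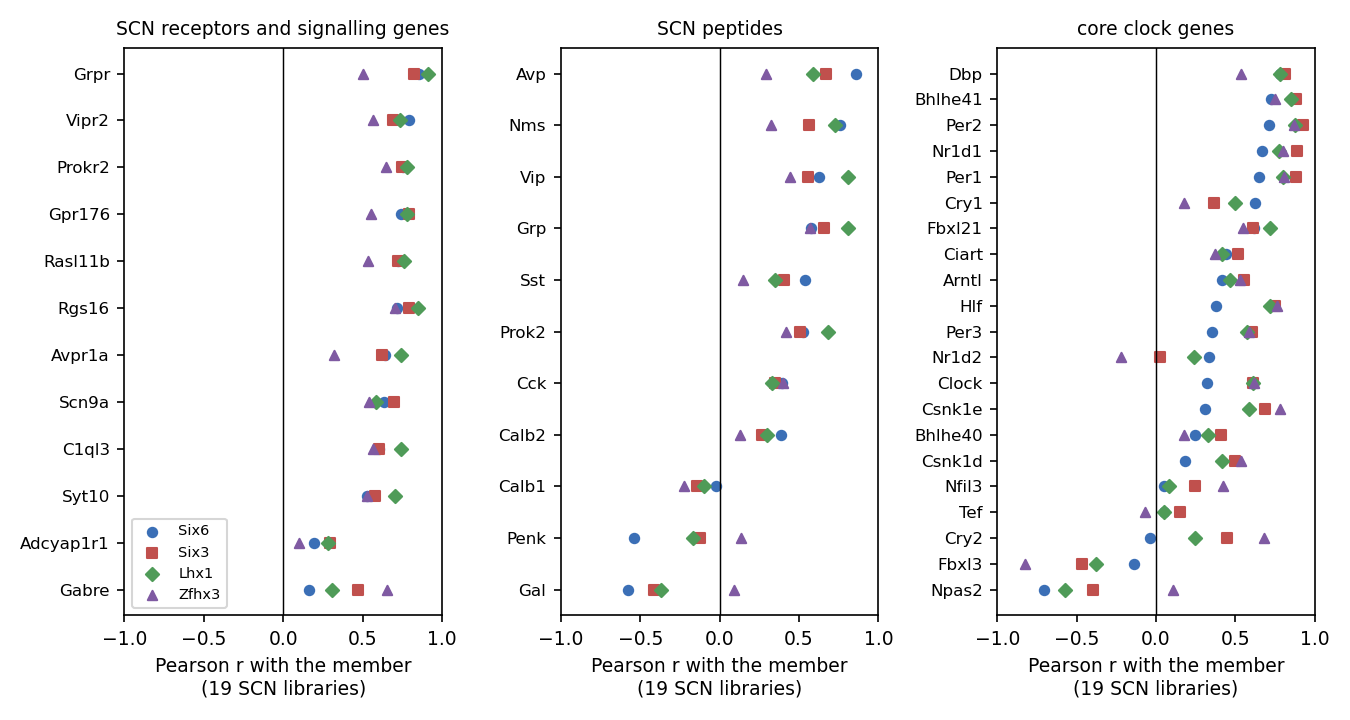
Pearson's r of log2 CPM across the 19 SCN libraries between each member and the measured genes of 3 lists, SCN receptors and signalling genes, SCN peptides and core clock genes. Each point is a gene; the medians of the receptor list are 0.68 for Six6, 0.698 for Six3, 0.744 for Lhx1 and 0.545 for Zfhx3.

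Peptides were examined next, beside the shares of all genes whose slope passed. For Six6, Six3, Lhx1 and Zfhx3 these were 1.26%, 15.8%, 4.10% and 21.2% positive, and 1.95%, 12.6%, 3.20% and 17.8% negative. Avp, the vasopressin precursor of shell neurons, and Nms, neuromedin S, had positive slopes on Six6 (0.74 and 0.93, adjusted p = 0.000558 and 0.00745), and Gal and Penk, the galanin and enkephalin precursors, had negative ones (-0.82 and -0.40). Penk also belongs to the list of striatal markers, with medians of 80.5 (SCN) and 904 CPM (NAc), each scaled within its table. Its slope on Six6 did not pass once J1199 and J1140 were left out, and the part of striatal tissue in it was not tested. With Lhx1, Grp, Vip, Nms and Prok2 had positive slopes that passed, of 0.60, 0.83, 0.57 and 0.51, and Avp did not pass. Grp, Avp and Vip passed on Six3, with Gal negative. None of the 11 measured peptides passed on Zfhx3 by edgeR at the adjusted threshold, and 1, Grp, had an unadjusted p under 0.05. The median r of the peptides was 0.523 with Six6, 0.406 with Six3, 0.347 with Lhx1 and 0.293 with Zfhx3. When J1157 and J1159 were left out, Avp, Nms, Gal and Penk passed on Six6 in the same directions, Vip, Grp and Nms on Lhx1, and again none on Zfhx3, where Vip, Grp and Cck had an unadjusted p under 0.05. Vip ranged from 5.07 to 134 CPM across SCN libraries and Avp from 22.6 to 187 CPM. Leaving out J1199 and J1140 instead, Avp and Gal passed on Six6, Grp, Avp and Gal on Six3, Vip and Grp on Lhx1 and none on Zfhx3, where 2 of 11 had an unadjusted p under 0.05. Whether the slopes of a peptide on 2 members differ was not tested.

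Several clock genes had positive slopes on each member, among them Per1, Per2 and Nr1d1, which belong to the feedback loops of the molecular clock. All 21 genes of the list were measured. Of all genes, 1.26% had a positive slope on Six6, 15.8% on Six3, 4.10% on Lhx1 and 21.2% on Zfhx3. With Six3, 10 had positive slopes that passed, led by Per2 (0.92, r 0.929), Nr1d1 (0.58, r 0.889) and Per1 (0.61, r 0.881), and with Zfhx3 11 did, led by the same 3. With Six6 there were 6, led by Dbp (0.26, r 0.78), and with Lhx1 7, led by Per2 (0.58, r 0.876). Npas2, which stands in for Clock in the forebrain, had a negative slope on Six6 (-0.37) and Lhx1 (-0.26). The median r of the list was 0.352 with Six6, 0.556 with Six3, 0.497 with Lhx1 and 0.535 with Zfhx3. Without J1157 and J1159 the positive counts were 4 for Six6, 5 for Six3, 5 for Lhx1 and 4 for Zfhx3, and Per2 and Nr1d1 were among them for each member. Without J1199 and J1140 they were 5, 11, 11 and 10, again with Per2 and Nr1d1 for each, and Npas2 did not pass on Six6 or Lhx1.

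Other transcription factors of the forebrain were measured in 32 of 50 cases. With Six6, 6 had positive slopes and 2 negative. With Six3 these counts were 13 and 1, with Lhx1 10 and 1, and with Zfhx3 17 and 0. The shares of all genes with a positive slope were 1.26%, 15.8%, 4.10% and 21.2%. The median r was 0.204, 0.403, 0.386 and 0.58 in the same order. Rora and Rorb, the retinoic acid receptor-related orphan receptors, Vax1, a homeodomain factor of the ventral forebrain that SCN neurons keep, and Sox1 and Sox2 passed with each of the 4 members. The slopes of Rora were 0.51 on Six6, 0.69 on Six3, 0.47 on Lhx1 and 0.54 on Zfhx3. Meis2, a homeodomain factor of striatal neurons, had slopes of -1.31 on Six6, -1.50 on Six3 and -1.06 on Lhx1. It did not pass with any of these 3 without J1199 and J1140, where the positive counts of the list were 3, 18, 16 and 19 and the negative ones 0. Of the 5 factors named before, Rora and Sox1 passed on Six6 there, and Rorb, Vax1 and Sox2 did not (adjusted p = 0.0598, 0.056 and 0.141). The 4 factors that passed with Zfhx3 in the 17 libraries were Nr2f2, Rorb, Nr2f1 and Tshz2, and 3 of these, all but Rorb, did not pass there with the other members.

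Among the relatives of the members, Zfhx2 and Zfhx4 followed Zfhx3. Of 9 measured zinc-finger homeobox genes, 5 had positive slopes on Zfhx3 (median r of the list 0.561), where 21.2% of all genes had one. Zfhx2 (1.06, SE 0.08, adjusted p = 2.05e-08, r 0.935) and Zfhx4 (0.52, SE 0.07, adjusted p = 1.46e-05, r 0.855) were the strongest. Both passed without J1157 and J1159, with slopes of 0.86 and 0.66 (adjusted p = 0.00694 and 0.0121). Neither passed on Six6, and Zfhx2 alone of them passed on Six3 (0.90) and on Lhx1 (0.52). Of 12 LIM genes, Lmo4 had negative slopes on Six6, Six3 and Lhx1, of -0.34, -0.40 and -0.29, and Lmo3 and Isl1 had negative slopes on Six3, Lhx1 and Zfhx3. Ldb1, the cofactor that LIM-homeodomain proteins bind, had a positive slope on Zfhx3 (0.30, r 0.916, adjusted p = 4.03e-06) and on Six3 (0.21), and its r with Zfhx3 was 0.779 without J1157 and J1159. Of the 7 EYA, DACH and TLE genes, none passed on Six6 (1, Dach1, at an unadjusted p under 0.05) and 1 on Six3, the corepressor Tle3 (0.26, adjusted p = 0.0393), about the share of all genes with a positive slope on Six3. Without J1157 and J1159, none of these 7, of the 12 LIM genes or of the 9 zinc-finger homeobox genes passed on Six3. There 2, 4 and 3 of them had an unadjusted p under 0.05. The r of Tle3 with Six3 was -0.203 in these 17 libraries, against 0.47 in all 19. None of the 9 zinc-finger homeobox genes passed on Lhx1 in the 17, where 2 had an unadjusted p under 0.05. Lmo4 did not pass on Six6, Six3 or Lhx1 without J1199 and J1140 (adjusted p = 0.471, 0.0648 and 0.0681).

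Markers of other cells were examined beside these slopes. Of 8 striatal markers measured in the SCN, Penk of the peptide list included, 6 had negative slopes on Six6, 3 on Six3, 5 on Lhx1 and 1 on Zfhx3, with Gpr6 at -0.91 and Ppp1r1b at -1.28 on Six6. Of all genes, 1.95%, 12.6%, 3.20% and 17.8% had a negative slope in this order, so the count on Zfhx3 was not above that share. Without J1199 and J1140 the negative counts were 0 (3 at an unadjusted p under 0.05), 2, 2 and 1. The shares of all genes were 0.581%, 15.8%, 9.56% and 19.3% there, so the count on Zfhx3 was again not above its share. On Lhx1, 1 striatal marker had a positive slope that passed there, as had 12.8% of all genes. All 3 markers of GABA neurons had positive slopes on Zfhx3, of 0.44 for Gad1, 0.55 for Gad2 and 0.38 for Slc32a1, and none passed on Six6, where 1, Gad1, had an unadjusted p under 0.05. With all libraries 2 of the 3 passed on Six3 and 1 on Lhx1, where 15.8% and 4.10% of all genes had a positive slope. Gad1 and Slc32a1 also passed on Zfhx3 without J1157 and J1159, but none of the 3 passed there on Six3 or Lhx1. Only Gad1 had an unadjusted p under 0.05 there on Six3 and on Lhx1. Without J1199 and J1140 all 3 had positive slopes that passed on Six3, Lhx1 and Zfhx3, as had 20.3%, 12.8% and 23.3% of all genes. Of other cells, 4 of 7 microglia and 4 of 6 endothelial markers had negative slopes on Zfhx3, and 1 endothelial marker a positive one. Without J1157 and J1159 the negative counts were 1 and 0 (1 at an unadjusted p under 0.05). All 9 oligodendrocyte markers had an unadjusted p under 0.05 on Six3 there (median r 0.499), and none passed. On Six6, 2 of 9 astrocyte markers had positive slopes that passed there, as had 1.25% of all genes. None passed on Six6 with all libraries, where 4, Gfap, Slc1a3, S100b and Agt, had an unadjusted p under 0.05. On Six3, 2 astrocyte markers had positive slopes that passed with all libraries and 1 without J1157 and J1159, where 15.8% and 1.43% of all genes had one. The part of the share of GABA neurons or other cells in the slopes above was not tested.

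Genes with a positive slope on Zfhx3 had longer exons than those with a negative one. The median exon length was 6.95 kb and 3.12 kb, against 4.71 kb over all genes, and 7.75 kb and 3.5 kb without J1157 and J1159. For Six3 these medians were 6.93 and 3.42 kb with all libraries and 5.96 and 4.67 kb without the 2, and for Lhx1 6.49 and 3.96 kb, then 5.9 and 5.24 kb. For Six6 the order was the other way, with 4.89 kb for positive and 5.78 kb for negative slopes, and 4.36 and 6.37 kb without the 2. Zfhx3 is itself the longest of the members, with 21.0 kb of exons. These are descriptions, and the part of RNA quality in them was not tested.

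In the NAc, Six3 and Zfhx3 also rose and fell together, with an r of 0.729 over 26 libraries, given as a description. The genes closest to Six3 there were Jph4 (0.941), Zfhx2 (0.912), Podxl (0.912), Sipa1l1 (0.907) and Sv2c (0.904). Those closest to Zfhx3 were Spata13 (0.926), Trerf1 (0.913), Ski (0.889), Shank3 (0.866) and Kif26b (0.863). The share of counts on mt-Rnr1 and mt-Rnr2 ranged from 39.0% to 69.3% in NAc libraries. Six3 was lowest in J965, with a share of 69.3%, and Zfhx3 in J1160, with 52.8%. The part of this share in the r of the NAc was not tested. In the PFC, where Six3 was near 0, its r with Zfhx3 was 0.439, and its highest r were 0.764 with Syndig1l and 0.749 with Cdc42ep1, then Ryr1 (0.747), E2f3 (0.733) and Pcp4l1 (0.732). All 10 striatal markers had a positive r with Six3 in the PFC, as had 5665 of all 11568 other genes. Their median was 0.597 against -0.00773 over all genes, on the 77 counts of Six3 given above. In the NAc 6 of the 10 striatal markers had a positive r with Six3, near the share of all genes, 5524 of 11568. Their median there was 0.118, against -0.0354 over all genes. The medians of the other marker lists ranged from -0.0488 for other hypothalamic neurons to 0.653 for GABA neurons. Zfhx3 in the PFC was closest to Cacng4 (0.91), Smap2 (0.901), Cgnl1 (0.9), Nlgn3 (0.899) and Bcorl1 (0.897).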

How the data were processed

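Counts of reads per gene were deposited by the authors in 2 tables, one for the SCN and one for the NAc and PFC, after FastQC 0.11.7, alignment with HISAT2 to GRCm38, counting with HTSeq and removal of genes with low counts and of Y-linked genes. The strand setting of the counting is not given in the sources used here. The members and gene lists were chosen with earlier results of these data known.

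Counts were scaled by TMM and expressed as CPM, per table or over the 11133 genes that both tables hold (joint scale). Correlations used log2 CPM with a prior count of 2. Regions were compared, and slopes on each member were fitted, with edgeR 4.0.16 (R 4.3.3), with Benjamini-Hochberg adjustment over all genes of the fit. Region calls needed an adjusted p under 0.05 and a fold of at least 1.2. Correlations were tested with 100000 permutations, or exactly for fewer than 10 libraries, two-sided, in Python 3.11.15 with scipy 1.17.1. Scripts were tested on simulated data.

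Besides the members, the text names genes of the lists that passed or have a textbook relation to a member, and for each member the genes with the 5 highest and 3 lowest r in the SCN and the 5 highest in the NAc and PFC. Motifs were searched in RefSeq promoter windows of GRCm38.p6.

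Mouse numbers in the labels were used to pair libraries of different regions, each number taken as 1 animal. The SCN library of J1165 differed in Xist from the other libraries of that number, as given above, and was kept in the pairs. The deviations of a mouse's libraries from their region means correlated across genes with r from -0.449 to 0.272 (NAc and PFC), -0.392 to 0.509 (SCN and NAc) and -0.282 to 0.39 (SCN and PFC). The medians of these r were 0.00606, 0.00133 and 0.0989. Alternatives were DESeq2 1.42.0 and its size factors, a prior count of 0.5, a filter of 10 counts, a block by mouse, each range of mouse numbers, leaving out libraries, and removing the genes of mitochondrial and ribosomal RNA. Leaving out J1157 and J1159, and the list counts without J1199 and J1140, were chosen after seeing the data. Libraries of a region differed from each other beyond sampling noise, with a chi-square per gene of at least 13.1 in any pair.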

Additional observations from a re-analysis of the deposited data

How the results depend on the processing

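The region differences of Six3 and Zfhx3 held their direction and call under every alternative run, with log2 differences from 1.11 to 1.42 (SCN and NAc), 8.04 to 8.76 (SCN and PFC) and 6.86 to 7.08 (NAc and PFC) for Six3, and from 2.09 to 2.49, 4.04 to 4.92 and 1.84 to 2.34 for Zfhx3. With the replicate block by mouse, 7039, 7153 and 5681 genes were called in these comparisons, against 7131, 7219 and 5254 without it, and the calls of both members did not change.

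Counts of genes whose slope passed moved most, and the cause was not tested. In the lower range of mouse numbers, with fewer libraries, they were 0 for Six6 by edgeR (1060 at an unadjusted p under 0.05), 98 for Six3, 86 for Lhx1 and 11 for Zfhx3. In the upper range they were 233 for Six6, 781 for Six3 and 238 for Lhx1. Without J1199 and J1140 they were 192 for Six6 (122 positive and 70 negative, against 152 and 235 with all libraries) and 2696 for Lhx1. Without J1157 and J1159 they were 332 for Six3, 271 for Lhx1 and 406 for Zfhx3. DESeq2 gave 1327 for Lhx1.

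Among pairs of members in the SCN, r was 0.659 for Six6 and Lhx1 (exact permutation p = 0.094) and 0.743 for Six3 and Zfhx3 (exact permutation p = 0.051) in the lower range, and the rank correlation of Six6 and Zfhx3 was 0.521 (permutation p = 0.024). Relations between regions of the same mouse, none of which passed, changed sign. For Six3, r was -0.205 (SCN and NAc) and -0.472 (NAc and PFC) in the lower range, -0.203 (SCN and NAc) without the 2 farthest mice, and -0.203 (SCN and NAc) and -0.258 (SCN and PFC) without J1157 and J1159. For Zfhx3 in the SCN and NAc, it was -0.151 by ranks, -0.353 in the lower range and -0.357 both without the 2 farthest mice and without J1157 and J1159. It was -0.27 for Zfhx3 in the SCN and PFC under both of the latter, and -0.128 in the NAc and PFC without the 2 farthest mice. The lower range held too few mice with SCN and PFC for a value.

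Condition and sex are not in the labels, and their part in the spread within each region was not tested. The 77 PFC counts of Six3 limit the precision of its contrasts with that region.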
